A study of Mus musculus with 12 samples.

Results

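Ets1 and Ets2 are closely related ETS transcription factors, proteins that bind DNA at a GGAA core and that act downstream of growth factor and MAP kinase signals. In endothelial cells, which line blood vessels, ETS factors are known for controlling genes of vessel identity, angiogenesis and matrix turnover, and Ets1 and Ets2 are known to have overlapping roles. The comparison described here took cells that already lacked Ets1 in the germline and set arrays with Cre, which was meant to remove Ets2 as well, against arrays without Cre. It asks what the loss of Ets2 does where Ets1 is absent.

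The arrays labelled Ets1/2 null came from aortic endothelial cells of 4 week old mice of genotype Ets1-/-; Ets2fl/fl that received lentiviral egfp-Cre, and the Ets1 null arrays from cells of the same genotype, Ets1-/-; Ets2fl/fl, that received lentiviral egfp. Each of the 4 groups of the series had 3 labelled arrays, and the other 2 groups were Ets2 null cells (Ets1+/+; Ets2fl/fl with lentiviral egfp-Cre) and wild type cells (Ets1+/+; Ets2+/+ with lentiviral egfp). The members of the comparison were chosen by title: replicates 1 and 2 labelled Ets1/2 null against the 3 Ets1 null arrays, so 5 of the 12 labelled arrays. The column of replicate 3 labelled Ets1/2 null equalled the mean of replicates 1 and 2 in 20521 of 20523 probe sets within 1e-06 and was left out. The Cre step acted in culture, and the descriptions of the single null arrays name the deleted gene as wild type where the titles and genotypes do not. The titles call the replicates biological, and nothing says whether they came from separate animals, so p-values cover only how far these arrays spread, which may be technical.

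The deposited values are log2 values per probe set, a set of array probes against 1 transcript. The arrays labelled Ets1/2 null had medians of 8.30 and 8.29, against 9.13, 9.14 and 9.15 in Ets1 null arrays and 9.05 to 9.15 in all arrays without that label. In them 13.7% and 14.1% of probe sets lay under 6.5, against 4.1%, 3.5% and 3.9% in Ets1 null arrays. Both arrays therefore stood apart as a pair: they correlated at 0.916 with each other, the Ets1 null arrays at 0.949 to 0.98, and pairs across the groups at 0.824 to 0.86, over all probe sets. Each array was centred on its own median, and every difference below is a difference of centred log2 values, labelled Ets1/2 null minus Ets1 null, with limma's standard error (SE) and adjusted p.

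A gene was counted as changed where its brightest probe set passed an adjusted p of 0.05 and its second brightest probe set moved in the same direction. This could be asked of 4785 of the 11015 genes on the table. The other 6230 genes had 1 probe set, and their values are given without that count.

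The endothelial label could be checked with few defining markers. Of 7, only Kdr and Cd34 were on the table. Kdr, the main VEGF receptor, lay far below the array median in every array, at -2.02 and -1.73 labelled Ets1/2 null and -1.70, -1.99 and -2.04 in Ets1 null arrays. Cd34 read 1.40 and -2.64, against -2.86, -0.84 and -1.48. The fibroblast collagens were among the bright genes of all 5 arrays: Col1a2 lay at 6.08 and 5.78 labelled Ets1/2 null and 5.31, 5.02 and 4.99 in Ets1 null arrays. Pdgfra, another fibroblast marker, read 3.03 and 3.64, against 1.77, 2.33 and 2.36. Dcn, also a fibroblast marker, was not bright throughout, at 1.14 and -1.12, against -2.79, -1.11 and -1.0. Acta2, a smooth muscle actin, read 5.75 and 2.21, against 1.57, 2.08 and 4.2, so 1 array of each label was high. Tagln, another smooth muscle marker, read 2.74 and -1.9, against -2.1, -0.89 and 1.89. Krt19, an epithelial keratin, read 1.88 and 5.28, against 5.15, 4.83 and 4.55 (-1.26, adjusted p = 0.48), so 1 array labelled Ets1/2 null was low. Epcam, an epithelial adhesion molecule, read 0.09 and 0.10, against 0.03, -0.31 and -0.81.

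The Ets1 readings went against the label. Ets1 is deleted in the germline of both groups, but its brightest probe set read 1.72 and 1.99 in the arrays labelled Ets1/2 null, against -0.82, -0.38 and 0.02 in Ets1 null arrays. That is a difference of 2.26 ± 0.26 (adjusted p = 0.000344). The second probe set read 1.51 and 1.52, against -1.0, -0.37 and -0.23 (2.04, adjusted p = 0.00056). The groups did not overlap in either. The remaining 2 probe sets were dimmer and did not share a direction: the brighter of them differed by -0.65 (adjusted p = 0.0814) and the dimmest by 0.93 (adjusted p = 0.0391). In wild type arrays the brightest probe set read 1.21, 0.72 and 0.95, so after centring the arrays labelled Ets1/2 null lay above wild type on it. In the values as deposited they read 10.02 and 10.29 and overlapped wild type, at 10.26, 9.84 and 10.06. The Ets1 null arrays lay below both groups there, at 8.31, 8.76 and 9.17.

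Ets2, the gene that Cre was to remove, was not lower in the arrays labelled Ets1/2 null. Its brightest probe set read 2.72 and 1.34, against 1.15, 1.23 and 1.39 in Ets1 null arrays (0.77 ± 0.41, adjusted p = 0.174). Its second probe set read 0.06 and -1.26, against -1.17, -1.29 and -1.27 (0.65, adjusted p = 0.15). Replicate 1 was the high array on both, and without replicate 2 the difference of the brightest probe set was 1.46 and passed the test, with a single array left that is assumed to vary like the other groups. In the values as deposited the difference was -0.07. Whether these probe sets fall inside the deleted exons is not given by the tables used, and a probe set outside them checks nothing. In Ets2 null arrays these probe sets did not pass the test as lower either. The brightest read 0.55, 0.29 and 1.05, against 0.68, 0.89 and 1.59 in wild type arrays (-0.42, limma, adjusted p = 0.554). The second differed by -0.15 (adjusted p = 0.801). Because of the Ets1 and Ets2 readings the Ets1/2 null group is called by its label throughout, and Ets2 null is likewise only a label.

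**Figure D1:**
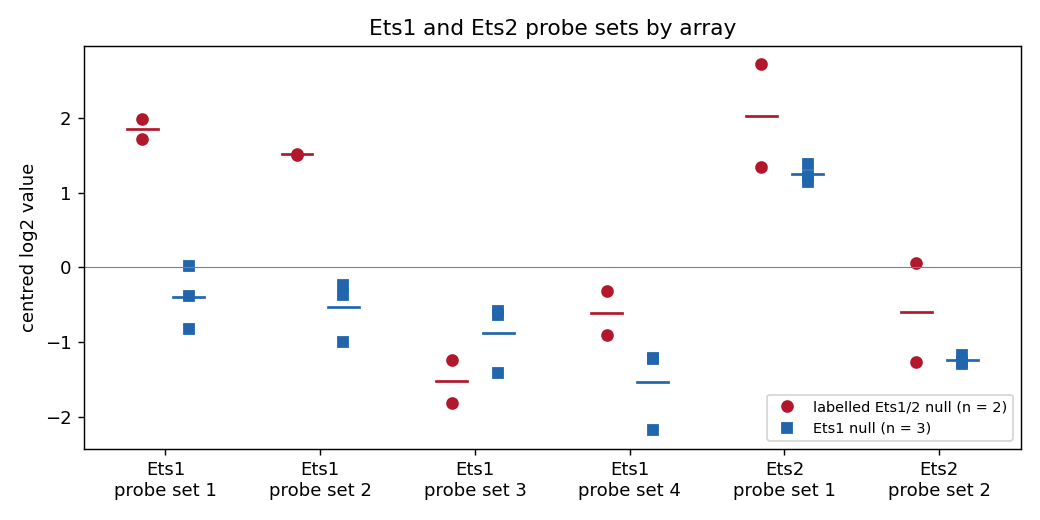
Centred log2 values (vertical axis) of the 4 Ets1 and 2 Ets2 probe sets, in order of brightness, in the 2 arrays labelled Ets1/2 null (circles) and the 3 Ets1 null arrays (squares), with group means as lines. The 2 brightest Ets1 probe sets were higher in the arrays labelled Ets1/2 null, and Ets2 was not lower in them.

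The promoters of the leading genes are given first, because the study removed factors that bind DNA and the leading rises belonged to the oxygen response. Each sequence runs from 250 bases before to 50 bases after the gene's start in RefSeq (GRCm38.p6), 5′ to 3′ on the gene's strand. Capitals mark ACGTG, the core of the element bound by hypoxia-inducible factors, or CCGGAAGT, a strong ETS site; both strands were searched. Vldlr has more than 1 start in the table, and the first is shown. The first set holds 3 of the genes that rose most: Vldlr at chr19:27216234-27216533 (plus strand), Adm at chr7:110627407-110627706 (plus strand) and Egln3 at chr12:54203825-54204124 (minus strand).
Vldlr: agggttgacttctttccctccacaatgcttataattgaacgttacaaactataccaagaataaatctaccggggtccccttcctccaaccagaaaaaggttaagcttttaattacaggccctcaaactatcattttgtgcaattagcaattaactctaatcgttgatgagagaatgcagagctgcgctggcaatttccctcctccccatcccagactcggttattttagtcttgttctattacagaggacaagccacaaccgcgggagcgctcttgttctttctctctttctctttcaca
Adm: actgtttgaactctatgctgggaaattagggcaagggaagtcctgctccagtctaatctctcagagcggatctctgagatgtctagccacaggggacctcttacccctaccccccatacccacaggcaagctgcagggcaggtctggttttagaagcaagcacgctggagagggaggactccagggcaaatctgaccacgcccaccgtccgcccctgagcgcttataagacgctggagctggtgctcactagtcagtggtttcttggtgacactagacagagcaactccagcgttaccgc
Egln3: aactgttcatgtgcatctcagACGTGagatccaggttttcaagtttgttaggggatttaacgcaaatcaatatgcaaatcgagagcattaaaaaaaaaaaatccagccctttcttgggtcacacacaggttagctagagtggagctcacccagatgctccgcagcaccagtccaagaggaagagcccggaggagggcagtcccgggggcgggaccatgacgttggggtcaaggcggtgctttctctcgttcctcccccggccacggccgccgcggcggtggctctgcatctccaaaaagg
The second set holds 3 of the genes that fell most: Gna12 at chr5:140830382-140830681, Qsox1 at chr1:155812850-155813149 and Coro1c at chr5:113908657-113908956, all on the minus strand.
Gna12: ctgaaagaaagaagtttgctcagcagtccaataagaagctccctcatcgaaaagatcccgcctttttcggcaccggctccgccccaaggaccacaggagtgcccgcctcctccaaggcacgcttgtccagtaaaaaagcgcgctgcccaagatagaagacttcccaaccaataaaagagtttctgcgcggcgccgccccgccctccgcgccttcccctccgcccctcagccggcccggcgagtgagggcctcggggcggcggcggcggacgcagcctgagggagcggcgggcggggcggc
Qsox1: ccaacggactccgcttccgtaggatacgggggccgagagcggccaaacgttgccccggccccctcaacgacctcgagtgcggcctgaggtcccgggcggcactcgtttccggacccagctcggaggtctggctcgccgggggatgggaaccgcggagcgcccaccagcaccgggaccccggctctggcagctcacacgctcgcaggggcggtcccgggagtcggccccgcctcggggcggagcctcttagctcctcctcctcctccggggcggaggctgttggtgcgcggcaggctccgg
Coro1c: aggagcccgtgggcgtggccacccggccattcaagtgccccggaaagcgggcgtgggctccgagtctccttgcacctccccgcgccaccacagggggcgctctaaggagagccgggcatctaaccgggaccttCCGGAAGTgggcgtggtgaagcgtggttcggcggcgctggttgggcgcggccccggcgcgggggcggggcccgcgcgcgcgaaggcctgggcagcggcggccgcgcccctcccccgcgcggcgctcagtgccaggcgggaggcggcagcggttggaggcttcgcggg
Egln3 held 1 ACGTG and Coro1c 1 CCGGAAGT, and the other promoters shown held neither in this window. Among changed genes with a promoter in the table, CCGGAAGT was present in 59 of 685 that rose (8.61%) and in 32 of 235 that fell (13.6%), against 358 of all 3892 genes with 2 or more probe sets (9.20%) and 1081 of 27025 RefSeq promoters (4.00%). ACGTG was present in 226 that rose (33.0%) and 62 that fell (26.4%), against 1066 of those 3892 genes (27.4%) and 5315 of the RefSeq promoters (19.7%). The short core GGAA, which lies inside CCGGAAGT, was in 95.8% of promoters of genes that rose and 95.4% of those of all tested genes, so it separates nothing. The promoters of genes that rose and fell had the same median GC content of 62.7%, while the genes that rose spanned a median of 36.9 kb and those that fell 19.1 kb, against 29.9 kb over tested genes. A match to these letters is a description of the window and not a binding site.

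The arrays labelled Ets1/2 null differed from Ets1 null arrays over a large part of the transcriptome. Of 4785 genes 1124 were changed (23.5%), with 843 higher (17.6%) and 281 lower (5.87%) in the arrays labelled Ets1/2 null. The median absolute difference of the changed genes was 0.99, and 67 exceeded 2 on the log2 scale, 42 higher and 25 lower. In 579 genes (12.1%) both probe sets passed the test in the same direction.

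The excess of rises depended on where zero was placed. The median difference over the brightest probe sets of all 11015 genes was 0.25 after centring. The share of rises among changed genes was 75% here, 60.8% after quantile normalisation (547 higher, 353 lower), 61.0% after cyclic loess (573 higher, 367 lower) and 54.8% when arrays were centred on their median difference from the mean array (504 higher, 416 lower). In the values as deposited it was 2.49% (46 higher, 1804 lower), with a median difference of -0.59. Small differences of any gene therefore have no settled sign, and the list medians below are read against 0.25.

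The 2 probe sets of a gene disagreed often in this comparison. They moved in the same direction in 2979 of 4785 genes (62.3%), against 3759 (78.6%) in Ets2 null cells compared with wild type. The differences of the 2 probe sets correlated across genes at 0.377 for the arrays labelled Ets1/2 null against Ets1 null and at 0.783 for Ets2 null against wild type, and genes are not independent replicates. In 174 genes both probe sets passed the test in opposite directions. Pfkp, a phosphofructokinase of glycolysis, differed by 2.62 on its brightest probe set and by -4.68 on its second (adjusted p = 0.00023 and 3.4e-05). Hif1a, the oxygen-regulated subunit of hypoxia-inducible factor, differed by 0.75 and -2.87 (adjusted p = 0.0151 and 9.89e-06). Such genes are not counted as changed. For genes with 1 probe set no such check existed, and 1980 of 6230 passed the test (31.8%), 1282 higher (20.6%) and 698 lower (11.2%).

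**Figure D2:**
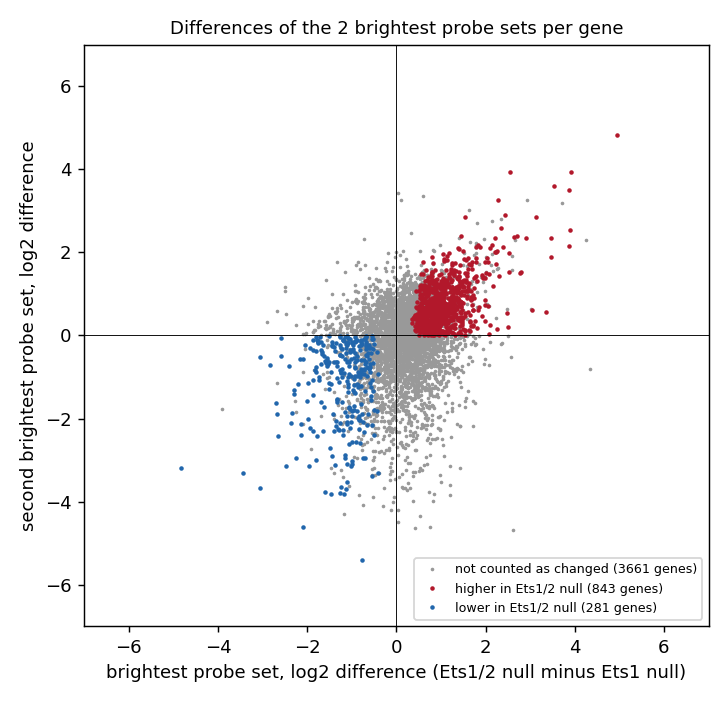
Log2 differences, labelled Ets1/2 null minus Ets1 null, of the brightest (horizontal axis) and second brightest probe set (vertical axis) of 4785 genes, 1 point a gene. The 843 genes counted as higher and 281 counted as lower are coloured, and the lower right part holds genes whose probe sets opposed each other.

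The largest rises were in a lipoprotein receptor and in genes of the oxygen response. Hypoxia-inducible factors (HIF) are degraded when oxygen is present, after prolyl hydroxylases mark them, and without oxygen they switch on glucose uptake, glycolysis, collagen hydroxylases and angiogenic factors. Of the 14 rises named by a rule on the smaller of the 2 probe set differences, 7 were members of the list of oxygen sensing and HIF target genes and 1 of the glycolysis list. The rule took only genes whose groups did not overlap on either probe set.

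Vldlr, the very low density lipoprotein receptor, read 1.70 and 2.14 in the arrays labelled Ets1/2 null, against -3.19, -2.91 and -2.97 in Ets1 null arrays. The difference was 4.94 ± 0.94, or 30.7-fold (adjusted p = 0.00422), and the second probe set gave 4.84. Both arrays labelled Ets1/2 null lay more than 4 log2 units above every Ets1 null array. The same probe set varied widely within the other groups. Vldlr read 0.21, -3.75 and -1.5 in wild type arrays and -1.43, 0.1 and 0.17 in Ets2 null arrays.

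Adm, which encodes the vasodilator peptide adrenomedullin, read 1.87 and 0.37, against -2.94, -2.78 and -2.69 (3.92 ± 0.95, adjusted p = 0.0121). Egln3, a prolyl hydroxylase that marks HIF for degradation and is itself a HIF target, read 3.89 and 3.72, against -0.42, 1.15 and 0.08 (3.54 ± 0.45, adjusted p = 0.000605). Its Ets1 null arrays spread over more than 1 log2 unit and still lay well below. Egln1, the main oxygen-sensing prolyl hydroxylase, read 3.76 and 4.29, against 1.08, 1.71 and 1.73 (2.52 ± 0.30, adjusted p = 0.00043). Vegfa, the main angiogenic ligand, rose by 2.08 ± 0.48 on its brightest probe set (adjusted p = 0.00998), but its second read only 0.05 higher. The third hydroxylase, Egln2, which has 1 probe set and is not known as a HIF target, was lower at 0.74 and 0.35, against 1.49, 1.43 and 1.39 (-0.89, adjusted p = 0.0076).

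Genes that adjust metabolism and protein folding to low oxygen rose with them. Ndrg1, a stress-response gene, read 3.61 and 4.17, against -1.46, 1.08 and 0.36 (3.89 ± 0.93, adjusted p = 0.0114). Higd1a, a mitochondrial protein of the hypoxia response, read 5.08 and 4.75, against 1.70, 2.86 and 2.55 (2.54 ± 0.31, adjusted p = 0.000497). Ero1a, the oxidase that drives disulfide formation in the endoplasmic reticulum, read 4.65 and 5.58, against 1.56, 2.74 and 2.92 (2.71 ± 0.40, adjusted p = 0.00133). In each of these the groups did not overlap, which the rule that named them required. Plod2, a lysyl hydroxylase for collagen, rose by 2.44 ± 0.48 (adjusted p = 0.00491), and Rora, a nuclear receptor of the circadian clock, by 3.46 ± 0.64 (adjusted p = 0.0036).

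In the whole list of 28 oxygen sensing and HIF target genes on the table, 9 of 16 with 2 or more probe sets were changed, all higher (56.2%, against 17.6% of all tested genes), and none was lower. Of the 12 with 1 probe set, 6 passed the test as higher and 1, Egln2, as lower, beside 20.6% and 11.2% of all such genes. Those 6 were Car9, a carbonic anhydrase (4.15), P4ha2, a collagen prolyl hydroxylase (3.56), Ampd3, an AMP deaminase (3.27), Ankrd37 (2.58), Bnip3, a mitophagy receptor (2.41), and Kdm3a, a histone demethylase (1.67). The list median was 2.43, against 0.25 over all genes. By array the median of the members was 2.42 and 3.15 labelled Ets1/2 null, against 0.48, 1.07 and 0.63 in Ets1 null arrays. The count of changed members was 7 to 9 under the other scalings and with any 1 of the 5 arrays left out. In 4 members, Hif1a, Vhl, Mxi1 and P4ha1, both probe sets passed in opposite directions. ACGTG was present in 14 of 23 promoters of the list (60.9%), beside 27.4% of tested genes; the list was drawn up from known HIF targets.

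Glucose handling followed the same pattern. Slc2a1, the glucose transporter GLUT1, read 4.10 and 4.2, against 1.27, 2.21 and 1.96 (2.34 ± 0.31, adjusted p = 0.000833). Pgm1, which links glycogen to glycolysis, read 3.22 and 3.88, against 1.11, 1.74 and 1.49 (2.11 ± 0.43, adjusted p = 0.00613). The glycolytic enzymes Pgk1 and Aldoa rose by 1.03 ± 0.19 and 1.01 ± 0.14 (adjusted p = 0.0037 and 0.00108). Pdk1, a kinase that holds pyruvate out of the mitochondrion, rose by 1.19 ± 0.34 (adjusted p = 0.0243), a call lost without either array labelled Ets1/2 null and without Ets1 null replicate 1 or 3. Of 10 glycolysis genes with 2 or more probe sets 6 were higher (60.0%, against 17.6% of all tested genes) and none lower. Of 12 with 1 probe set 6 were higher, beside 20.6% of all such genes, and none lower. Among those with 1 probe set Aldoc differed by 4.08, Gbe1 by 3.81 and Hk2, the inducible hexokinase, by 2.88. The list median was 1.02, and by array 3.14 and 3.52, against 1.33, 1.75 and 1.60. After quantile normalisation 3 genes of the list were counted as changed, and in the values as deposited 2, all higher. Hk1, Gys1 and Pfkp had probe sets that opposed each other.

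The remaining named rises were of other kinds. Trps1, a GATA-type repressor, read 1.03 and 0.01, against -4.06, -3.20 and -2.82 (3.88 ± 0.73, adjusted p = 0.00411). Rasgrf1, an exchange factor for Ras, rose by 2.91 ± 0.82 (adjusted p = 0.0219), the only one of the 14 whose second probe set missed the test (adjusted p = 0.0636). Dipk2a rose by 2.64 ± 0.61 (adjusted p = 0.00983). Alcam, a cell adhesion molecule, and H1f2, a linker histone, rose by 2.22 ± 0.76 and 2.28 ± 0.76, and their calls were lost in 15 and 16 of 24 other settings. With 1 of the 5 arrays left out, 20 of the 28 named rises and falls kept their calls each time. The calls of Alcam and H1f2 were lost without any 1 of the arrays, and that of Rasgrf1 without Ets1/2 null replicate 1 or Ets1 null replicate 1 or 3. Adm was lost without Ets1/2 null replicate 1, and Ndrg1 and Dipk2a without Ets1/2 null replicate 2. Among the falls described below, Tnfrsf12a was lost without either array labelled Ets1/2 null, and Ermp1 without Ets1/2 null replicate 1 or any of the Ets1 null arrays.

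**Figure D3:**
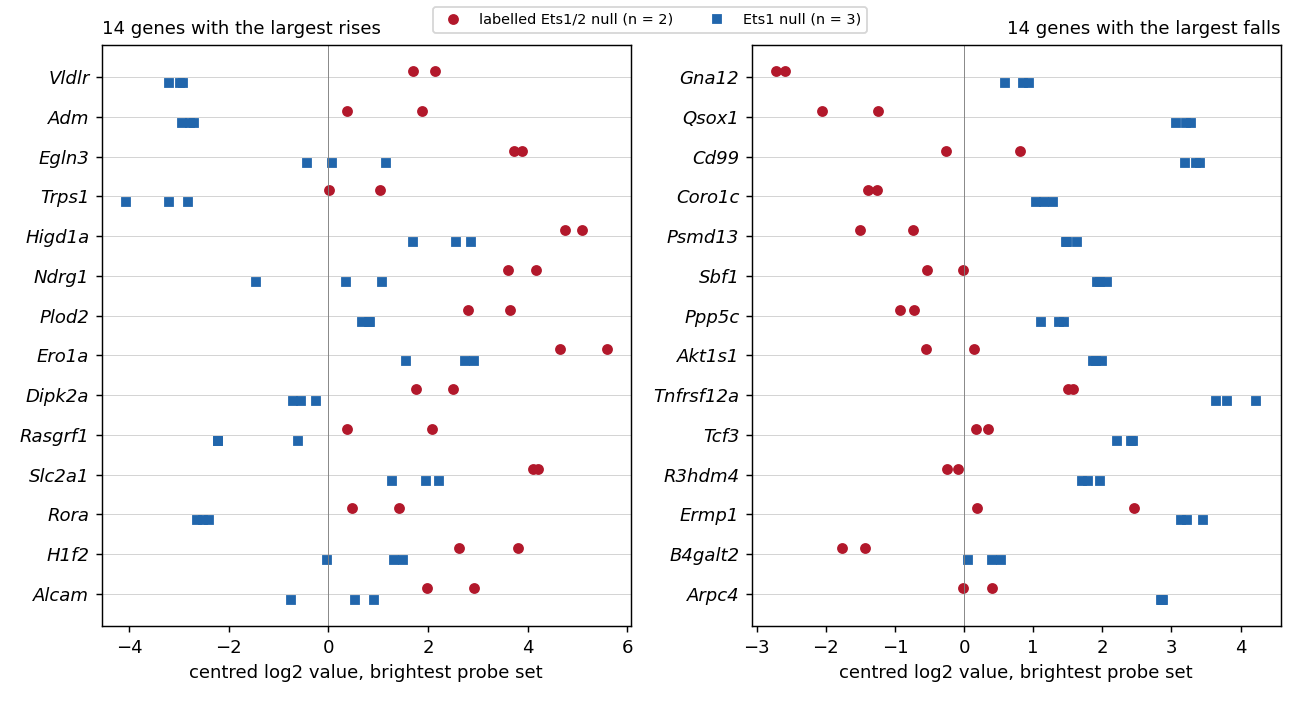
Centred log2 values of the brightest probe set (horizontal axis) of the 14 named rises (left) and 14 named falls (right), for the 2 arrays labelled Ets1/2 null (circles) and the 3 Ets1 null arrays (squares). The groups did not overlap in any of the 28 genes, a condition of the rule that named them.

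The largest falls came from several pathways. Gna12, a G protein alpha subunit that couples receptors to RhoA, read -2.72 and -2.59, against 0.85, 0.94 and 0.59 (-3.44 ± 0.34, adjusted p = 0.000177). In the arrays labelled Ets1/2 null its deposited values of 5.58 and 5.70 lay near the low end of the scale. Qsox1, a sulfhydryl oxidase that forms disulfides in secreted proteins, read -2.06 and -1.25, against 3.06, 3.21 and 3.29. It fell by 4.84 on the log2 scale (SE 0.48, adjusted p = 0.000177), the largest fall of a brightest probe set among the named genes. Ero1a, which also drives disulfide formation, had risen.

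Cd99, an adhesion molecule used by leukocytes crossing the endothelium, read -0.26 and 0.81, against 3.41, 3.36 and 3.20 (-3.05 ± 0.39, adjusted p = 0.000633). Coro1c and Arpc4, which act on branched actin, differed by -2.48 ± 0.37 and -2.67 ± 0.24 (adjusted p = 0.00131 and 0.000122). Psmd13, a subunit of the proteasome lid, read -0.74 and -1.50, against 1.47, 1.49 and 1.64 (-2.65 ± 0.29, adjusted p = 0.000298). Tcf3, the E protein of the E2A locus, differed by -2.10 on its brightest probe set and by -4.62 on its second.

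Tnfrsf12a, the receptor for the cytokine TWEAK, read 1.5 and 1.57, against 3.80, 3.65 and 4.23 (-2.35 ± 0.60, adjusted p = 0.0154). Sbf1, Ppp5c, a protein phosphatase, Akt1s1, an inhibitor of mTOR complex 1, R3hdm4, Ermp1 and B4galt2 fell by 2.26, 2.13, 2.13, 1.98, 1.95 and 1.94 on the log2 scale. In all 14 named falls both probe sets passed the test. Ermp1 was the one in which the arrays labelled Ets1/2 null lay far apart, at 0.19 and 2.46, against 3.14, 3.23 and 3.46.

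Srebf2, the transcription factor that switches on cholesterol synthesis, was lower. It read -0.56 and -0.57, against 1.44, 1.34 and 1.16 in Ets1 null arrays (-1.88 ± 0.16, adjusted p = 8.39e-05). Insig2, which holds the factor back in the endoplasmic reticulum, was higher by 1.71 ± 0.32 (adjusted p = 0.00419). These were the only changed members among 12 with 2 or more probe sets (8.33% each way, against 17.6% higher and 5.87% lower of all tested genes). Of the 11 with 1 probe set 6 passed the test, all lower, beside 11.2% of all such genes. They were Fdps (-2.64), Insig1 (-1.83), Ebp (-1.59), Scap (-1.21), Pmvk (-1.10) and Dhcr7 (-1.10). The list median was -0.72, against 0.25 over all genes. It was -1.12 without Ets1/2 null replicate 1 and -0.37 without Ets1/2 null replicate 2. By array the median of the members was 0.39 and -0.65, against 0.76, 1.15 and 0.30, so replicate 1 lay within the range of the Ets1 null arrays.

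Genes of cell survival gave a mixed picture. Bcl2l1, which encodes the death inhibitor Bcl-xL and is measured here by 1 probe set, read -3.05 and -2.72, against 1.04, 0.70 and 0.56 (-3.65 ± 0.44, adjusted p = 0.000467). Birc2, an inhibitor of apoptosis, read 0.99 and 0.77, against -0.42, -0.24 and -0.47 (1.26, adjusted p = 0.00147). Of 6 survival genes with 2 or more probe sets only Akt1 was counted as changed (16.7% lower, against 5.87% of all tested genes). It differed by -0.77 on its brightest and -5.41 on its second, so its size is not settled. The call of Akt1 was lost with any 1 of the 5 arrays left out. Of 10 survival genes with 1 probe set 2 passed as higher and 2 as lower, beside 20.6% and 11.2% of all such genes. Of 11 apoptosis effectors 2 fell (18.2%, against 5.87% of all tested genes) and none rose (against 17.6%). The 2 were Bad and Htra2, both promoters of cell death, which fell by 1.05 and 1.74 on the log2 scale.

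In the PI3 kinase and Akt list 4 of 10 members with 2 or more probe sets were higher (40.0%, against 17.6% of all tested genes) and 1, Akt1, was lower (10%, against 5.87%). The forkhead factors Foxo1 and Foxo3, which Akt keeps out of the nucleus, rose by 1.93 ± 0.39 and 1.73 ± 0.35 (adjusted p = 0.00561 and 0.00557). Gsk3b and Rictor rose by 0.96 and 0.99, and the call of Rictor was lost without Ets1/2 null replicate 2 or Ets1 null replicate 2. The median of all 23 members was 0.43, near the 0.25 of all genes.

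In the NF-kappaB and inflammation list 3 of 14 genes with 2 or more probe sets were higher (21.4%) and 1 lower (7.14%), shares near the 17.6% and 5.87% of all tested genes. Ptgs2, the inducible cyclooxygenase, read 3.28 and 3.12, against -0.73, -0.97 and -0.34 (3.88 ± 0.83, adjusted p = 0.00704). Nfkbiz, a nuclear cofactor of NF-kappaB, read 2.53 and 3.10, against 0.87, 0.73 and 0.16 (2.23 ± 0.38, adjusted p = 0.00267). Nfkbia, the inhibitor that NF-kappaB induces, rose by 1.79 ± 0.40 and Nfkb2 fell by 1.88 on the log2 scale, with second probe sets that missed the test. The median was 0.85 over 25 members. Of 11 immediate-early genes with 2 or more probe sets 3 were higher (27.3%, against 17.6% of all tested genes) and none lower. Fosl2, an AP-1 subunit, rose by 2.8 ± 0.44 (adjusted p = 0.00179), and the others were Nr4a2 and Spred2. The call of Nfkbia was lost without Ets1/2 null replicate 2, that of Nr4a2 without Ets1/2 null replicate 1 and that of Spred2 without Ets1/2 null replicate 2.

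Of 23 TGF-beta and BMP genes 5 were higher (21.7%) and 2 lower (8.7%), shares near those of all tested genes. Without Ets1/2 null replicate 1 or Ets1 null replicate 3, and after quantile normalisation, 3 were higher. Smad5, a signal carrier of BMP receptors, and Id2, a BMP target, fell by 1.68 and 1.51 on the log2 scale (adjusted p = 0.000438 and 0.0116). The receptor Bmpr2 and the inhibitory Smad7 rose by 1.71 and 1.23 (adjusted p = 0.00227 and 0.00768), as did Fstl1 by 2.06 (adjusted p = 0.0193). The call of Id2 was lost without Ets1/2 null replicate 2, and that of Fstl1 without Ets1/2 null replicate 1 or Ets1 null replicate 2 or 3.

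Besides Ets1, 1 of the 9 ETS family genes with 2 or more probe sets was counted as changed. Etv3, a repressor, rose by 0.99 ± 0.21 on its brightest probe set and by 0.22 on its second. Of the 6 family members with 1 probe set, Etv4, Erf and Elk1 were lower, by -2.18, -1.52 and -0.61, beside 11.2% of all genes with 1 probe set. The family median was -0.11 over 15 members.

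Genes of proliferation lay low without passing the rule. None of 22 cell cycle genes with 2 or more probe sets was counted as changed by limma, and 3 were lower at an unadjusted p of 0.05. The list median was still -0.91 over 44 members. Under the values as deposited 7 of the 22 were lower, a smaller share than the 1804 of all 4785 tested genes. The list median was -1.35 without replicate 1 and -0.25 without replicate 2 labelled Ets1/2 null, so the size rested on replicate 2. Of 23 DNA replication genes 1, Rfc3, was lower (4.35%, against 5.87% of all tested genes). Rfc3 differed by -1.12 (adjusted p = 0.0224), a call lost without either array labelled Ets1/2 null and without Ets1 null replicate 1 or 3.

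Ribosomal protein genes had no settled direction. Of 17 with 2 or more probe sets 10 were higher (58.8%, against 17.6% of all tested genes) and none lower, with differences of the named ones between 0.60 and 0.83. After quantile normalisation none was higher and 2 were lower, and in the values as deposited none was higher and 9 were lower. Of all 4785 tested genes 547 were higher and 353 lower after quantile normalisation, and 46 higher and 1804 lower in the values as deposited. In the respiratory chain 5 of 28 were higher (17.9%, against 17.6% of all tested genes), such as Cox5b and Uqcrb (0.99 and 0.92). Another 4 were lower (14.3%, against 5.87%), such as Atp5g2 and Ndufv1 (-1.88 and -1.26). Without Ets1 null replicate 1 or 3 there were 3 higher, and after quantile normalisation or cyclic loess 2.

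In bulk RNA fewer cells of a type and less RNA per cell cannot be told apart. No endothelial marker with 2 or more probe sets was changed by limma, of 7, nor did any pass an unadjusted p of 0.05. Among 8 with 1 probe set 1 was lower, near the 11.2% of all such genes: Procr, the protein C receptor (-1.24, adjusted p = 0.0424). The medians of the 15 endothelial markers on the table were -0.52 and -1.73, against -1.10, -0.85 and -1.46. Of 14 fibroblast markers 2 were higher (14.3%, against 17.6% of all tested genes), Fn1 by 0.81 and Bgn by 0.75. None was higher after quantile normalisation or cyclic loess, and the call of Bgn was lost with any 1 of the 5 arrays left out. The medians of all 22 were 3.96 and 3.14, against 2.78, 2.24 and 2.01. Of 6 smooth muscle markers Tpm2 was higher and Tpm1 lower (16.7% each, against 17.6% and 5.87% of all tested genes). The call of Tpm2 was lost without Ets1/2 null replicate 1 or any of the Ets1 null arrays, and that of Tpm1 without Ets1/2 null replicate 2. The defining leukocyte marker Cd68 lay at -2.49 and -2.84, against -3.13, -2.12 and -2.81. The part of fibroblast, smooth muscle or epithelial markers in the results above was not tested. Among matrix and vessel genes, which ETS factors are known to regulate, 1 of 13 proteases and inhibitors (Timp3, 0.87) was higher. So was 1 of 15 angiogenic ligands and receptors (Sema3c, 3.04). These shares of 7.69% and 6.67% lay under the 17.6% of all tested genes. The call of Sema3c was lost without either array labelled Ets1/2 null and without Ets1 null replicate 2 or 3. Of 21 basement membrane and integrin genes 4 were higher (19.0%, near the 17.6% of all tested genes), among them Col4a1 and Nid1, and 1, Zyx, was lower. There was 1 higher without Ets1/2 null replicate 1 or 2, without Ets1 null replicate 2 or 3, and after quantile normalisation, cyclic loess or centring on the median difference. In the values as deposited none was higher and 5 were lower, beside 46 higher and 1804 lower of all 4785 tested genes.

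**Figure D4:**
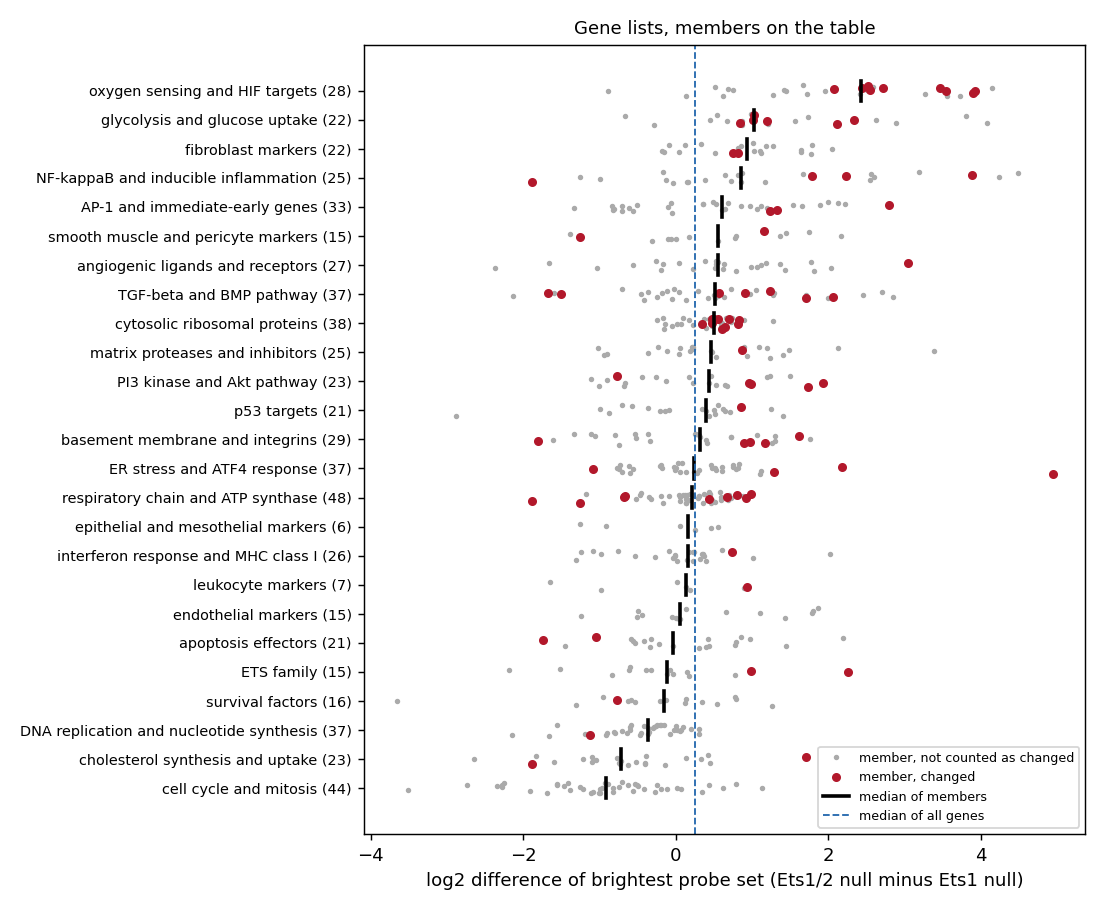
Log2 differences, labelled Ets1/2 null minus Ets1 null, of the brightest probe set (horizontal axis) for every list member on the table, with the list median as a black line and the median of all genes (0.25) dashed. The oxygen sensing list had the highest median at 2.43 and the cell cycle list the lowest at -0.91.

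Of 26 ER stress and ATF4 genes 3 were higher (11.5%, against 17.6% of all tested genes), Vldlr, Trib3 and Ddit3, the stress factor CHOP. Ddit3 rose by 2.18 ± 0.30 (adjusted p = 0.000916). Wars, a tRNA synthetase, was the only lower one, by -1.08 (3.85%, against 5.87%). The list median was 0.24, against 0.25 over all genes. The call of Trib3 was lost without Ets1/2 null replicate 1 or Ets1 null replicate 1 or 3. Of 8 interferon genes 1 was higher (12.5%), B2m by 0.74, and of 11 p53 targets 1 (9.09%), Rrm2b by 0.86. Both shares lay under the 17.6% of all tested genes. The single leukocyte marker with 2 or more probe sets, Csf1r, was higher by 0.93 with a second probe set at 0.02. The call of B2m was lost without Ets1/2 null replicate 2, and that of Csf1r without Ets1/2 null replicate 1 or Ets1 null replicate 3. No epithelial marker had 2 or more probe sets.

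Ets2 null against wild type arrays, the comparison in the Ets1+/+ genotype, gave 23 changed genes of 4785 (0.481%), 10 higher (0.209%) and 13 lower (0.272%). These groups differ in the floxed Ets2 alleles as well as in Cre, and every Ets2 null array was male, against 1 of 3 wild type arrays. Of the 843 genes that rose and 281 that fell in the arrays labelled Ets1/2 null, 3 were also counted as changed the same way in Ets2 null arrays and 6 the opposite way. By sign alone 509 of the rises (60.4%) and 141 of the falls (50.2%) lay above 0 there, against 49.8% of all tested genes. Srebf2 was lower in both comparisons, by -1.88 and -0.96. Egln3, Nfkbiz, Tnfrsf9 and Pdk1 were higher in the arrays labelled Ets1/2 null against Ets1 null and lower in Ets2 null against wild type: Egln3 by 3.54 and -2.68, Nfkbiz by 2.23 and -2.84, Tnfrsf9 by 3.46 and -1.51, and Pdk1 by 1.19 and -2.0. The other 2 were Mt1 and Pcgf5. All of these calls in Ets2 null arrays were lost in 3 other fits by limma, where none of the 4785 genes was changed: with a term for male arrays, with the replicate block and with only the Ets2 null and wild type arrays. In those fits 350, 756 and 697 genes passed an unadjusted p of 0.05. The male term could be estimated only within wild type, from 1 male array.

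The 2 comparisons were set against each other directly, as labelled Ets1/2 null minus Ets1 null, less Ets2 null minus wild type, called the difference between the backgrounds. The backgrounds are those of the labels, which the Ets1 readings went against in the arrays labelled Ets1/2 null. Because the second comparison differs in the floxed alleles too, the effect of Ets1 cannot be told apart from that difference. It was called for 647 of 4785 genes (13.5%), 435 positive (9.09%) and 212 negative (4.43%). Of the 843 rises 333 were called positive by this test (39.5%), and of the 281 falls 155 were called negative (55.2%). The test contains the difference that chose these genes, so shares above 9.09% and 4.43% follow partly from that choice. Such shares cannot tell whether changed genes depended more on the background. By the smaller of the values of 2 probe sets, the leading positive genes were Egln3, Ptgs2, Adm, Tnfrsf9, the costimulatory receptor 4-1BB, and Nfkbiz. On the brightest probe set the difference was 6.22 for Egln3, 7.79 for Ptgs2, 4.86 for Adm, 4.97 for Tnfrsf9 and 5.06 for Nfkbiz, and Ndrg1, another named gene, had 5.26. The call of Adm was lost in 12 of 22 other settings. The leading negative ones were Qsox1 at -5.73, Mtm1, a phosphoinositide phosphatase, at -3.78, Gna12 at -3.74, Cd99 at -3.37 and Id2 at -2.8 on the brightest probe set. For the top rise, Vldlr, the difference was 3.65 and missed the test (adjusted p = 0.0724).

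This test joined arrays of both sexes. By Xist and the Y-linked Eif2s3y, all 5 arrays of the Ets1 null background came from female cells, whereas every Ets2 null array and 1 of the wild type arrays came from male cells. With a term for male arrays 308 genes were called. Only the wild type group held both sexes, so this term rests on its 1 male array.

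**Figure D5:**
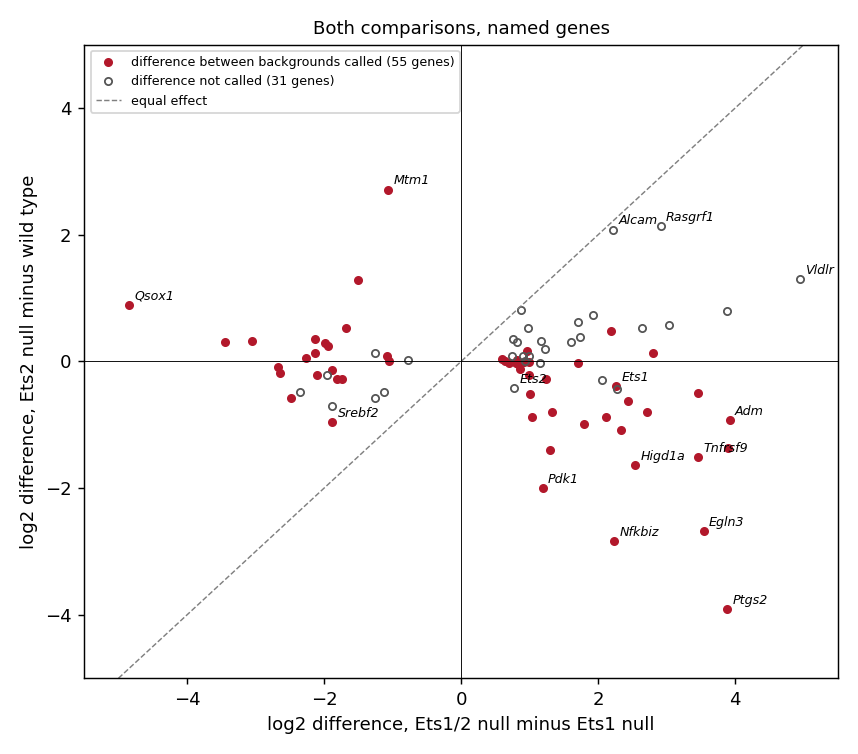
Log2 differences of the brightest probe set for the 86 named genes: labelled Ets1/2 null minus Ets1 null (horizontal axis) and Ets2 null minus wild type (vertical axis), with filled points for the 55 genes whose difference between the 2 comparisons was called. Ptgs2, Nfkbiz and Egln3 lay above 0 for labelled Ets1/2 null minus Ets1 null and below 0 for Ets2 null minus wild type, while Alcam and Rasgrf1 lay near the line of equal effect.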

How the data were processed

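The deposited values are log2 values, 1 per probe set, and the tool named for them is RMA, per the submitters' processing notes; the version, filters and whether the groups were normalised jointly are not stated by the labels. The table had 20523 probe sets and 12 columns, 1 of them left out as the mean of 2 others. The median of all probe sets was subtracted within each array. Group means were fitted over 11 arrays with limma 3.58.1 (R 4.3.3) and 7 residual degrees of freedom (lmFit and eBayes, two-sided), with Benjamini-Hochberg adjustment over all 20523 probe sets for 3 contrasts: labelled Ets1/2 null minus Ets1 null, Ets2 null minus wild type, and their difference. Errors are limma's SE. Every adjusted p in the text comes from this fit, which was tested on simulated data. The brightest probe set is that with the highest mean over the 11 arrays. Tables and plots used pandas 2.3.3 and matplotlib 3.10.9.

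Gene symbols came from the array's annotation table, and promoters from RefSeq (GRCm38.p6); Cd99 had no entry there. The rule for named genes took Ets1 and Ets2; 14 rises and 14 falls among changed genes whose groups overlapped on neither probe set and whose brighter group lay above its arrays' median, by the smaller of the 2 absolute differences; up to 5 changed members per list by the brightest probe set; and 5 positive and 5 negative genes of the difference between backgrounds. List members with 1 probe set are given as values. Egln1, Vegfa, Pcgf5, Mt1 and the genes with opposed probe sets are outside the rule and were chosen after their values were seen. The members, the 25 lists and the rule were chosen with earlier results of these data known. The alternatives were other scalings, no centring, other uses of probe sets, brightness and threshold limits, array weights, a replicate block, a male term, only the compared groups, and leaving out each array.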

Additional observations from a re-analysis of the deposited data

Results flagged for a closer look

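Each of the 55 named genes below was singled out because labelled Ets1/2 null minus Ets1 null and Ets2 null minus wild type, a pair that differs in floxed Ets2 alleles as well as in Cre, themselves differed by limma's interaction test at an adjusted p under 0.05, with both probe sets on the same side. The values are that difference of differences on the log2 scale, from the brightest probe set. Every Ets2 null array and 1 of the wild type arrays were male, and the other arrays female. With a term for male arrays in the fit all 55 kept their direction, 37 passed the test and 18 did not, among them Adm (5.53), Ndrg1 (4.55), Fosl2 (2.67) and Srebf2 (-1.0). Only the wild type group held both sexes, so this term rests on 1 array and is a weak adjustment for sex.

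Among oxygen response and glucose genes the values were 6.22 for Egln3, 5.26 for Ndrg1, 4.86 for Adm, 4.19 for Higd1a, 3.97 for Rora, 3.51 for Ero1a, 3.07 for Plod2, 3.42 for Slc2a1, 3.18 for Pdk1, 2.99 for Pgm1, 1.91 for Pgk1 and 1.52 for Aldoa. Among inflammatory and immediate-early genes the values were 7.79 for Ptgs2, 5.06 for Nfkbiz, 4.97 for Tnfrsf9, 2.77 for Nfkbia, 2.67 for Fosl2, 2.13 for Nr4a2 and 1.51 for Spred2. Among the largest falls the values were -5.73 for Qsox1, -3.74 for Gna12, -3.37 for Cd99, -2.58 for Arpc4, -2.48 for Akt1s1, -2.47 for Psmd13, -2.31 for Sbf1, -2.28 for R3hdm4, -2.26 for Ppp5c, -2.18 for B4galt2, -1.92 for Coro1c and -1.89 for Tcf3. Among signalling and survival genes the values were -2.80 for Id2, -2.20 for Smad5, -1.46 for Htra2, -1.06 for Bad, 0.80 for Gsk3b, 1.20 for Rictor and 2.64 for Ets1. Among stress and lipid genes the values were 2.69 for Trib3, 1.70 for Ddit3, -1.16 for Wars, 1.74 for Insig2, -0.92 for Srebf2 and 0.98 for Rrm2b. Among ribosomal and respiratory chain genes the values were 0.71 for Rpl22, 0.86 for Rpl41, 0.63 for Rps29, 0.56 for Rps4x, 0.79 for Rps7, 1.0 for Cox5b, 0.82 for Cox7a2, 0.94 for Uqcrb and -1.75 for Atp5g2. The ribosomal values changed sign in the values as deposited, apart from Rpl41, which changed sign in the mean of its probe sets. Zyx, a focal adhesion protein, gave -1.53. Mtm1 gave -3.78 and was not counted as changed in the arrays labelled Ets1/2 null against Ets1 null, where it differed by -1.07 (limma, adjusted p = 0.311). Ets1 gave 2.64: its brightest probe set rose by 2.26 in the arrays labelled Ets1/2 null against Ets1 null, and differed by -0.39 in Ets2 null against wild type (limma, adjusted p = 0.368). No named result was tested for a single array far from its group, because no group had more than 3 arrays.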

How the results depend on the processing

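Of the gene calls named above, 25 of 86 kept direction and side of the threshold under every alternative that gave a value for Ets1/2 null against Ets1 null (the limit on brightness gave one for 74 of the 86); they include Egln3, Ero1a, Higd1a, Plod2, Slc2a1, Vldlr, Qsox1, Cd99 and Srebf2. Of the values called in either setting, 17 changed sign, 15 of them in the values as deposited, which keep the lower medians of the arrays labelled Ets1/2 null: B2m -0.11, Bgn -0.09, Cox7a2 -0.05, Fn1 -0.03, Rpl22 -0.15, Rpl41 -0.02, Rps29 -0.20, Rps4x -0.25 and Rps7 -0.02, and between the backgrounds Gsk3b -0.02, Rpl22 -0.11, Rps29 -0.19, Rps4x -0.26, Rps7 -0.03 and Timp3 -0.76. Values called in neither setting are not counted. Averaging probe sets turned Timp3 (-0.05) and, between the backgrounds, Rpl41 (-0.05). The calls of Pxn, Col4a1, Sparc and Sema3c were lost in 11 to 14 of 24 settings, and that of Bgn was kept in 5.

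The counts that moved most are given as changed genes, then rises and falls, then genes with both probe sets passing, then genes called between the backgrounds. The values as deposited gave 1850, 46, 1804, 1302 and 1351. Probe sets above the median brightness gave 572, 428, 144, 309 and 335, and an adjusted p under 0.01 gave 576, 415, 161, 203 and 215. The mean of all probe sets gave 3181 genes, 1932 higher and 1249 lower, with 1612 between the backgrounds. Without the agreement rule, genes with 1 probe set included, it was 3599, 2468, 1131 and 1920. Rises numbered 547 after quantile normalisation and 504 after centring on the median difference, a setting chosen after seeing the data. A term for male arrays, which rests on 1 male wild type array, left 308 between the backgrounds. Leaving out 1 array in turn gave 798 to 1219 changed genes, 336 to 661 with both probe sets passing and 416 to 702 between the backgrounds. Both probe sets passed in 366 genes without Ets1 null replicate 2, 352 without Ets1 null replicate 3 and 336 without Ets1/2 null replicate 2. Between the backgrounds 416, 418 and 429 genes were called without Ets1 null replicates 2 and 3 and Ets2 null replicate 1. Without Ets1/2 null replicate 2, with a single array left that is assumed to vary like the other groups, Ets2 passed the test as higher (1.46).

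Ets2 null against wild type, with 23 genes, moved most: 10 with 1 probe set per gene, 60 with the mean of probe sets or without the agreement rule, 7 among bright probe sets, 451 with array weights, and 0 to 44 with 1 array left out. It gave 0 with only those groups, with the replicate block, with the male term and at 0.01; by limma 697, 756 and 350 genes passed an unadjusted p of 0.05 in the first 3 of these fits. Whether replicate numbers pair the arrays cannot be told from deviations from the group means. Those of same-numbered arrays correlated at -0.306 and -0.238, but with 2 arrays labelled Ets1/2 null the deviations of replicate 1 mirror those of replicate 2. The replicate block gave 966 changed genes, 716 higher and 250 lower. Arrays carry no counts, so the 2 and 3 arrays limit the precision, and low values compress folds.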
